A study of Mus musculus with 6 samples.

Results

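Respiratory complexes II to V and cytochrome c were described in B16F10 cells through 63 genes, chosen by symbol from the 27179 genes of the expression table. The members were the genes named for succinate dehydrogenase (Sdha to Sdhd, with the assembly factors Sdhaf1 to Sdhaf4), for ubiquinol-cytochrome c reductase (Uqcr genes and Cyc1), for cytochrome c (Cycs), for cytochrome c oxidase (Cox followed by a digit) and for ATP synthase (Atp5 genes). Pseudogene symbols ending in -ps were left out, and there were 2 of them. Of the 63 members, 47 encode structural subunits and 16 encode assembly factors, regulators or the carrier.

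B16F10 is an established mouse melanoma line, wild type by its label. Cells were given 0.01% olive oil (OLO) in 3 cultures or 0.01% ozonated olive oil (OZO), olive oil exposed to ozone, in 3 cultures, and RNA was taken at 6 h. All 6 libraries come from this 1 line, and no untreated cells were among them. The levels below are the authors' mean log2 CPM (reads per gene scaled to a common library size) over all 6 libraries, so OZO-treated and OLO-treated cells enter each level together. They have no SD and no test, a difference between OZO and OLO is not analysed here, and no statement below is about the effect of ozone. The mean library held 19641945 scaled reads, so that 1 CPM corresponded to 19.6 reads per library, and 3 reads to 0.153 CPM. Reads per library are geometric means.

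The cells carried the markers of their label. The 7 melanocyte genes listed for the check lay between 108 and 7052 CPM per gene. Of 17 markers of keratinocytes, fibroblasts, leukocytes, endothelium and muscle, 3 reached 1 CPM, the highest being Pdgfra at 3.28 CPM. The 4 keratinocyte markers lay at or below 0.0367 CPM, although the labelled tissue is skin.

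The inner mitochondrial membrane holds the chain that oxidises fuel. Complex II, which also works in the citric acid cycle, passes electrons from succinate to ubiquinone. Complex III moves them to cytochrome c, complex IV hands them to oxygen, and complex V uses the proton gradient built by the chain to make ATP. Complex II is encoded in the nucleus alone, while complexes III, IV and V each also hold subunits encoded in mitochondrial DNA. Several complex IV subunits exist as tissue paralogs, of which some are known from muscle, lung or testis.

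The members that stand out in these cells are obligate subunits with almost no assigned reads, and their sequences are shown first. Uqcr11, a small complex III subunit on chromosome 10 (80402997 to 80406830, minus strand, GRCm38), was 1 of 16 members whose coding sequence matched an annotated gene at another locus at 95% identity or more over at least 80% of its length. Of these 16, the other 15 reached 1 CPM, and 9 of the 10 members under 1 CPM had no such copy. The share of all genes with such a copy was not counted, and the part of copies in the levels was not tested. The closest match of Uqcr11, the processed pseudogene Gm16418 on chromosome 1 (166431705 to 166431875, minus strand), differed at 2 of 168 aligned bases. The coding sequences are given 5′ to 3′ without the stop codon, from GENCODE transcripts of GRCm38, with the differing bases in capitals.

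Uqcr11: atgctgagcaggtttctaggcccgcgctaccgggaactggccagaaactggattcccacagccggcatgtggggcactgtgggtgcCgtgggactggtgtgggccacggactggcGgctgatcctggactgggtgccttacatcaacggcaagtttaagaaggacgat
Gm16418: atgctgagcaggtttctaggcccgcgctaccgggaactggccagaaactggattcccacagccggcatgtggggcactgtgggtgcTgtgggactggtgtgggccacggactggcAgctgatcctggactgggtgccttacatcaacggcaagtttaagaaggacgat

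The promoters of Sdhd and Uqcr11 follow, beside those of Uqcrh and Cox6a1, members of complexes III and IV with high levels. They were taken from RefSeq (GRCm38.p6), 5′ to 3′ on the minus strand of each gene, and end at the base before the gene's start. The Sdhd stretch is short because a neighbouring gene begins there. Capitals mark the letters CCGGAAG on either strand, the core bound by ETS factors such as GABP, and in Cox6a1 first the palindromic motif of NRF1, a regulator of many respiratory genes, in which the base after the A may be any base.

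Sdhd, chr9:50603850-50603900: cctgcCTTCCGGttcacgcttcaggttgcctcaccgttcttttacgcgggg
Uqcr11, chr10:80406822-80406971: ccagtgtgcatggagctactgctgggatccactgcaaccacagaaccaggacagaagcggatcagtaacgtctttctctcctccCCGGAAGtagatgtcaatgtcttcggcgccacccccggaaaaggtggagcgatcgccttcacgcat
Uqcrh, chr4:116075071-116075220: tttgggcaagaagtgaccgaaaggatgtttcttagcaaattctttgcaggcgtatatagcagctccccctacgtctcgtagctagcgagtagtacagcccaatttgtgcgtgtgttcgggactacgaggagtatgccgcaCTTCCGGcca
Cox6a1, chr5:115348959-115349108: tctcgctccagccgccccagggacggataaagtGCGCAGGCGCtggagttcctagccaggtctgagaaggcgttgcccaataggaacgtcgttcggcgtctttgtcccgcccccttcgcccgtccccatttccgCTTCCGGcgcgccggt

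The ETS letters are thus in the promoters of Sdhd and Uqcr11, with hardly any reads, and in those of Uqcrh and Cox6a1, which had 142 and 52.3 CPM per gene.

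Most members were clearly expressed. Of the 63 members, 53 reached 1 CPM, against 43.7% of all 27179 genes in the table. At 16 CPM there were 48 members, and the share of all genes at that limit was not counted. The remaining 10 were all structural subunits, and none of the 10 was entirely without reads. The boundary was wide, since the lowest member above it was Sdhaf1 at 4.47 CPM (87.2 reads per library) and the highest below it was Cox7a2 at 0.891 CPM (17.0 reads). In bulk RNA, fewer cells that express a gene and less RNA per cell cannot be told apart. Together the members summed to 7933 CPM, or 0.815% of the sum over all genes.

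To compare genes, levels were divided by the summed exon length of the GENCODE gene model, in kilobases (CPM per kb). The gene models on which the authors counted reads are not given and may differ, which would shift the levels per kb. All 37 subunits at 1 CPM or more lay above 7.26 CPM per kb, the median of the 11477 genes at that limit with a gene model. The median over the subunits at 1 CPM or more was 72.3 CPM per kb in complex II (3 of 4 subunits), 71.0 in complex III (8 of 9), 104 in complex IV (9 of 17) and 42.4 in complex V (17 of 17). The ranges overlapped throughout. They ran from 31.3 to 79.7 CPM per kb in complex II, from 40.6 to 137 in complex III, from 38.0 to 199 in complex IV and from 11.7 to 349 in complex V. Among subunits at 1 CPM or more, complex V was the widest, with a ratio of 29.8 between its highest and lowest subunit, against 2.54 in complex II, 3.37 in complex III and 5.24 in complex IV. With the subunits under 1 CPM counted it was the narrowest, since those 10 all belong to complexes II, III and IV.

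**Figure D1:**
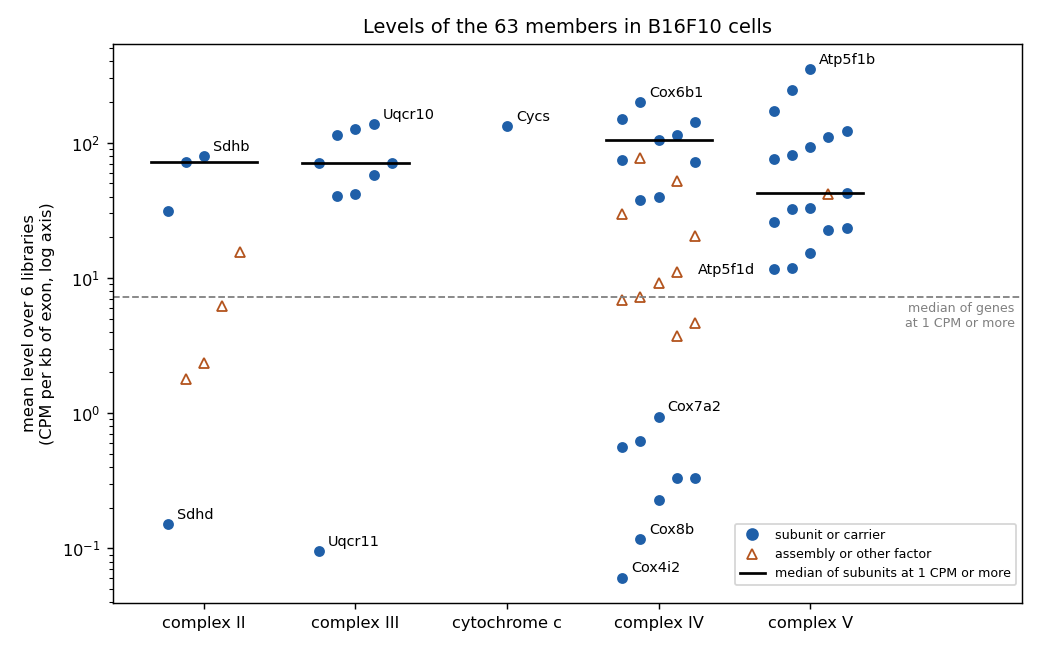
Mean level over all 6 libraries of each of the 63 members (CPM per kb of exon, log axis), by complex, with subunits and cytochrome c as filled points, other members as open triangles and black lines for the medians of subunits at 1 CPM or more. The complexes overlap, and 10 subunits of complexes II, III and IV lie below 1 CPM per kb.

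The order of the 4 complexes depended on the length used. Scaled by coding length, the medians were 201 CPM per kb for complex II, 221 for complex III, 439 for complex IV and 369 for complex V, so that complex V moved from the last place to the second. The summed exons were a median of 2.56 times longer than the coding transcript in complex V and 1.38 times in complex III. Complex IV had the highest median under both scalings, but this leaves out its 8 subunits under 1 CPM. With all subunits counted it moved from 104 to 38.0 CPM per exon kb and from the first place to the last, and without scaling by length complex II was first, at 178 CPM per gene against 141 for complex IV. For comparison, complex I, the entry point for electrons from NADH, had a median of 31.4 CPM per exon kb over 36 of 42 genes chosen by symbol. These include Ndufa4, now known as a complex IV subunit, and without it the median over 35 of 41 genes was also 31.4 CPM per exon kb.

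In complex II, Sdhb, the iron-sulfur subunit, stood at 79.7 CPM per kb and Sdha, the flavoprotein that oxidises succinate, at 72.3. Sdhc, 1 of the 2 membrane anchors, stood at 31.3 CPM per kb. Per coding kb Sdhc stood at 201 CPM, above Sdha at 150 and close to Sdhb at 211, while per kb of the coding transcript it was again the lowest of the 3, at 32.1 CPM against 103 and 156. Sdhd, the other anchor, on chromosome 9 (50596357 to 50603812, minus strand), had 0.186 CPM per gene, or 3.15 reads per library, while Sdhc had 1998 reads. No exon base of Sdhd overlapped another gene, and no coding copy met the criteria given above for Uqcr11. Why so few reads were assigned to Sdhd was not tested.

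In complex III, the small subunit Uqcr10 was highest at 137 CPM per kb, followed by Uqcrb at 126 and Uqcrh, the hinge protein, at 114. Per coding kb Uqcrh was first, at 530 CPM against 416 for Uqcr10, and likewise per kb of the coding transcript, at 259 against 184 CPM. The Rieske iron-sulfur protein Uqcrfs1 stood at 71.3 CPM per kb and the core protein Uqcrc2 at 70.6. Cyc1, cytochrome c1, followed at 57.4, Uqcrq at 41.7 and the other core protein, Uqcrc1, at 40.6 CPM per kb. The order of the 2 core proteins depended on length, since Uqcrc2 exceeded Uqcrc1 by a ratio of 1.74 per exon kb and 1.14 per coding kb, while per kb of the coding transcript Uqcrc1 stood at 101.5 CPM and Uqcrc2 at 95.0. Uqcr11 lay far below these 8 genes, at 0.061 CPM per gene. Its mean of 0.698 reads per library fits a total of as few as 6 reads over 6 libraries, and its exons overlapped no other gene. A second processed pseudogene, Gm11628 on chromosome 11, differed from Uqcr11 at 8 of 168 bases. The part of either pseudogene in this low value was not tested.

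Cycs, the mobile carrier between complexes III and IV, had 453 CPM per gene and 133 CPM per exon kb, above every complex III subunit but Uqcr10. Its coding sequence had 4 copies, of which the closest, Gm10053 on chromosome 19, matched all 315 aligned bases. Cycs was 1 of 5 members with a copy identical over the whole coding sequence, the others being Cox7c, Atp5mc2, Atp5mg and Atp5mk, and the levels of all 5 are uncertain. Per coding kb Cycs was the highest member, at 1437 CPM, but it stood at 145 CPM per kb of the coding transcript. On that last scale it was below Uqcrh at 258.7, Uqcrb at 205.5 and Uqcr10 at 184.2 CPM, and above the other complex III subunits. Cyct, the testis form of cytochrome c, had 0.169 CPM per gene.

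In complex IV, 9 subunits were high. Cox6b1, which faces the intermembrane space, stood at 199 CPM per kb, Cox7b at 150, Cox4i1 at 144, Cox7c at 114 and Cox5b at 104. Below them came Cox6a1 at 74.5, Cox8a at 71.8, Cox6c at 39.6 and Cox5a at 38.0 CPM per kb. This order depended on length. Per coding kb Cox7b was first at 761 CPM, followed by Cox7c at 681 and Cox6c at 620, ahead of Cox6b1 at 547, and Cox5a stood at 182. Per kb of the coding transcript Cox4i1 was first, at 299 CPM, and Cox6b1 stood at 228. Ndufa4 lay outside the naming rule and stood at 138 CPM per exon kb.

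The paralogs of complex IV were split sharply. Cox4i1, the common form of subunit 4, had 223 CPM per gene, while Cox4i2, known from lung, had 0.0480 CPM, which fits a total of as few as 4 reads. Cox6a1 exceeded Cox6a2, the heart and muscle form, by a ratio of 119 per exon kb. Of the exon bases of Cox6a2, 10.3% overlapped Itgad, and the RefSeq span of Cox4i2 overlapped those of Bcl2l1 and Gm32057. The part of these overlaps in the low levels was not tested. Cox6b1 exceeded Cox6b2, the testis form, by 878 per exon kb, 678 per coding kb and 355 per kb of the coding transcript, ratios that rest on 4.44 reads per library of Cox6b2. Cox8a exceeded Cox8c by 127 per exon kb, with 4.57 reads per library of Cox8c, and Cox8b, a muscle form, had 0.0423 CPM per gene. Cox7b had 183 CPM per gene and Cox7b2 had 0.179. These 6 low paralogs all lay under 8 reads per library, so the ratios are rough.

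Position 7A differed from the others. Cox7a1, the heart and muscle form, had 0.177 CPM per gene, and Cox7a2, the form common in other tissues, also stayed under the limit at 0.891 CPM. Cox7a2l, a related gene known for a role in joining complexes III and IV into supercomplexes, had 113 CPM per gene. This level does not show whether its protein has that role in these cells. At this position, neither of the paralogs that serve as the subunit itself reached 1 CPM. Cox7a2, on chromosome 9 (79755361 to 79759878, minus strand), had no coding copy under the same criteria and no exon overlap in GENCODE, while its longer RefSeq span overlapped those of Tmem30a and Gm51685. The part of that overlap in its level was not tested. Of the 5 muscle markers, only Tnnt2 reached 1 CPM, at 1.57 CPM.

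**Figure D2:**
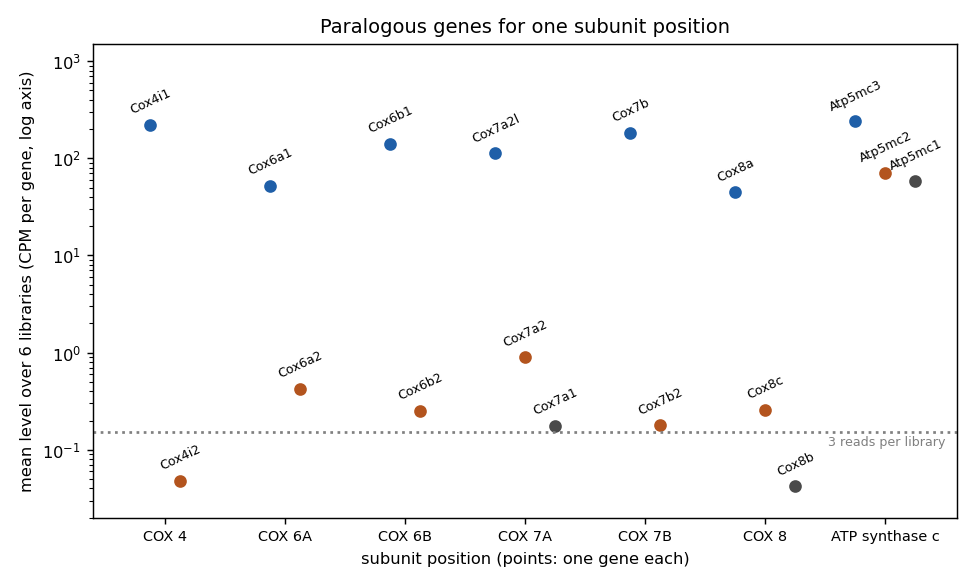
Mean level over all 6 libraries (CPM per gene, log axis) of paralogous genes grouped by subunit position of cytochrome c oxidase (COX) and for the c ring of ATP synthase, 1 point per gene, with a dotted line at 3 reads per library (0.153 CPM). In each COX position but 7A 1 subunit gene is above 40 CPM and the others lie under 1 CPM, while all 3 c ring genes are above 50 CPM.

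Complex V had no subunit under 1 CPM. In the F1 head, Atp5f1b, the catalytic beta subunit, was the highest member at 1478 CPM per gene and 349 CPM per exon kb, and came after Cycs per coding kb, at 932 CPM. Atp5f1a, the alpha subunit, stood at 248 CPM per kb and Atp5f1c, the gamma subunit of the central stalk, at 173. The beta gene exceeded the alpha gene by a ratio of 1.41 per exon kb, 1.99 per coding kb and 2.46 per kb of the coding transcript. The enzyme holds alpha and beta in equal number, and fewer copies of gamma, delta and epsilon. Atp5f1d, the delta subunit, was the lowest of complex V at 11.7 CPM per exon kb, 29.8 times under beta by exon length and 20.8 times by coding length. Per kb of the coding transcript Atp5mc1 was lower, at 12.3 CPM against 24.3 for Atp5f1d. Atp5f1e, the epsilon subunit, stood at 22.8 CPM per exon kb, and its gap to alpha shrank from a ratio of 10.9 to 1.82 by coding length and 3.30 by the coding transcript.

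The c ring, which turns as protons pass, is encoded by 3 genes whose mature proteins are the same and whose import sequences differ. Atp5mc3 stood at 239 CPM per gene, Atp5mc2 at 71.1 and Atp5mc1 at 57.9, together 368 CPM. Unlike the complex IV paralogs, all 3 were well above the limit. Atp5mc2 had a pseudogene with an identical coding sequence, and Atp5mc1 had 1 that matched at 99.8%.

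The peripheral stalk, which holds the F1 head still, had its 4 genes between 32.3 CPM per kb (Atp5pf) and 123 (Atp5po), with Atp5pb at 93.8 and Atp5pd at 76.2. For Atp5po, 47.9% of the exon bases overlapped other gene records, or 35.6% without a second record that GENCODE lists under the same name. The membrane subunits had a lower median by exon length, 25.8 CPM per kb against 85.0 in the stalk, and the ranges overlapped. By coding length the order turned, with 371 against 346 CPM per kb, and per kb of the coding transcript the medians were 178.5 and 209 CPM. Atp5mj stood at 81.8 CPM per kb, Atp5mf at 32.8, Atp5me at 25.8, Atp5mk at 23.5 and Atp5mg at 15.2. By coding length 4 of these 5 lay between 317 and 572 CPM per kb, and Atp5me, at 74.5, stood apart. Atp5mg had 8 coding copies, the most of any member. Atp5if1, the inhibitor that stops ATP synthase from running backwards, had 41.9 CPM per exon kb.

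**Figure D3:**
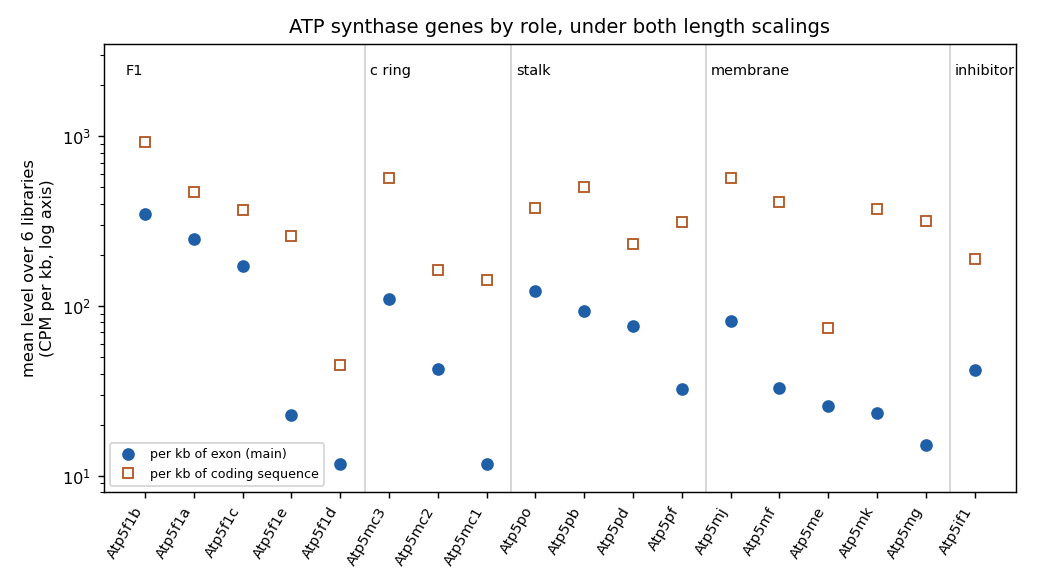
Mean level over all 6 libraries of the 18 complex V members by role (log axis), as CPM per kb of exon (filled circles) and CPM per kb of coding sequence (open squares). Atp5f1b is highest and Atp5f1d lowest on both scales, and the distance between the scales differs between genes.

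The assembly factors were all expressed and, by their median, stood below the subunits. All 13 reached 1 CPM, with a median of 7.26 CPM per kb, and the median of the 37 subunits at 1 CPM or more was 9.96 times as high. Per coding kb this ratio was 7.24, and over all 47 subunits it was 5.85 per exon kb. For complex II they ran from Sdhaf1 at 1.79 CPM per kb, through Sdhaf3 at 2.36 and Sdhaf2, which helps attach the flavin to Sdha, at 6.23, to Sdhaf4 at 15.6. For complex IV the highest was Cox20, which helps mature the COX2 protein, at 52.0 CPM per kb, followed by Cox14 at 29.6 and the copper factor Cox11 at 20.6 CPM per kb. Both orders changed per coding kb, where Cox17 stood above Cox20, at 222 against 131 CPM, and Sdhaf2 above Sdhaf4, at 89.99 against 43.6 CPM. Per kb of the coding transcript Cox20 and Cox17 stood at 97.4 and 94.4 CPM, and Sdhaf2 and Sdhaf4 at 54.9 and 19.9 CPM. The heme A enzymes Cox15 and Cox10 stood at 11.1 and 9.16 CPM per kb. Cox17, a copper chaperone whose coding sequence also belongs to the overlapping gene record Gm21987, stood at 7.26, Cox19 at 6.83, Cox16 at 4.65 and Cox18, a membrane insertase, at 3.74 CPM per kb. For Cox20, 91.1% of the exon bases overlapped Hnrnpu, for Sdhaf1 69.6% overlapped another gene, for Cox16 56.8% and for Cox11 48.3%. These overlaps were taken without regard to strand. Reads from overlapping genes cannot be told apart here, and may have been added to a gene or left out of it.

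Genes of the same pathway outside the naming rule were listed as well. Of 38 genes, 35 were found and 32 reached 1 CPM, among them 24 of 26 assembly factors. Coa5 was the highest of the complex IV factors at 42.7 CPM per exon kb, Uqcc2 of the complex III factors at 27.4 and Tmem70 of the complex V factors at 39.98. Sco2, a copper chaperone for complex IV, and Pet117 had no reads, while Sco1 had 31.1 CPM per gene. Why no reads were assigned to Sco2 and Pet117 was not tested. Among the mitochondrial genes, mt-Co1 had 14830 CPM per gene and mt-Cytb 7995, but mt-Co2 had 125, mt-Co3 83.1, mt-Atp6 139 and mt-Atp8 11.4 CPM. The levels assigned to the mitochondrial genes of complex IV thus differed widely. Copies were sought for the members only and not for these mitochondrial genes. The part of copies in the mitochondrial levels was not tested.

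The letters of 3 motifs were counted in the promoter windows, from 250 bases before to 50 bases after each start in RefSeq, which gave 53 windows for 49 members. The NRF1 motif, as marked in Cox6a1 above, was in 26.1% of the 46 windows of members at 1 CPM or more (12 windows), against 10.5% for all genes at 1 CPM or more and 4.6% of all windows. CCGGAAG was in 43.5% (20 windows), against 18.1% and 8.9%. AAGATGGCG, a motif of YY1, was in 6.5% (3 windows), against 3.1% and 1.4%. The motifs were searched on both strands, and none of the 3 holds another. Among the 7 windows of members under 1 CPM, the NRF1 motif was in 1, that of Sdhd, and CCGGAAG in 2, those of Sdhd and Uqcr11. Windows with the NRF1 motif belonged to complexes II to V, among them Sdha, Uqcrc1, Cox6a1 and Atp5f1c. A match is a run of letters and does not show that a factor binds.

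**Figure D4:**
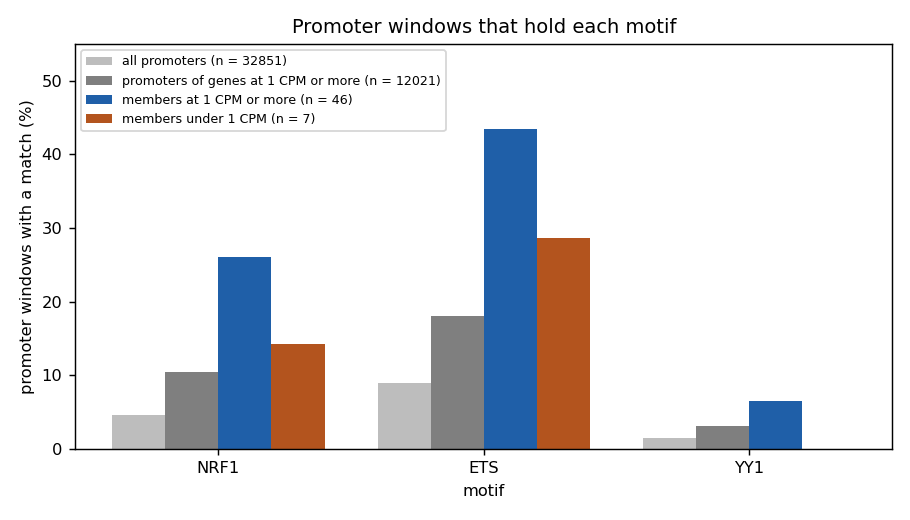
Share of promoter windows of 300 bases (percent, axis from 0) that hold each motif, for all windows, windows of genes at 1 CPM or more, and windows of members at or under that limit. Windows of members at 1 CPM or more hold NRF1 and ETS letters in 26.1% and 43.5%, against 10.5% and 18.1% for all genes at that limit, and YY1 letters are in 6.5%.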

How the data were processed

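RNA-seq of 6 B16F10 libraries (3 OLO, 3 OZO) was analysed. Per the labels and methods, the authors prepared directional libraries, aligned reads to mm10 with HISAT2 (2.1.0), counted them with featureCounts (2.1.1) and compared groups with limma-voom (limma 3.58.1). The strand setting and the gene models used for counting are not given in the sources used here. The deposited table holds, per gene, the authors' mean log2 CPM over all libraries, and their own fold changes, moderated statistics, p-values and log odds of OZO against OLO. Only the mean log2 CPM was used. The comparison columns hold the study's findings and were not used, so OZO against OLO was not analysed, although a test had been planned for tables of single libraries.

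CPM was 2 raised to that mean. Genes without reads share the lowest value, which, through the 0.5 reads that voom adds, gave the mean library size and reads per gene. The arithmetic of this step was checked on counts simulated with the same formula. That check cannot show that the authors' means were built in this way. Depth of single libraries is unknown. Exon, coding and transcript lengths and overlaps came from GENCODE M21 (GRCm38, that is mm10), in which all 63 members were found. Overlaps were counted on either strand. Copies were sought with BLAST 2.17.0 (at least 95% identity over 80% of the coding sequence, at another locus), and promoters were taken from RefSeq (GRCm38.p6). Python 3.11.15 and pandas 2.3.3 were used. Named were all members, and of other pathway genes mainly the highest and lowest of each role, Pet117, Sco1 and the mitochondrial genes being added after their values were seen. The members and lists were chosen with earlier results of these data known. The copy, overlap and motif searches, the pairs of genes compared and the coding transcript lengths were chosen after the levels had been seen.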

Additional observations from a re-analysis of the deposited data

How the results depend on the processing

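The medians of the complexes have no replicate spread to set them against. Per coding kb they were 200.6 CPM for complex II, 221.3 for III, 439.0 for IV and 368.6 for V, and 3 of the 6 pairs of complexes kept their order. Without scaling by length they were 178.4, 116.9, 141.0 and 100.9 CPM per gene (5 pairs). As means of log2 levels they were 56.5, 74.62, 90.58 and 52.1 CPM per exon kb (5 pairs). With assembly factors counted, complex II fell to 15.58 and complex IV to 38.82 (2 pairs), and with subunits under 1 CPM counted, complex II stood at 51.81, III at 70.59 and IV at 38.01 (2 pairs). A limit of 16 CPM moved complex V to 59.31 and kept all 6 pairs. Per kb of the coding transcript, an alternative added after the data were seen, they were 102.9, 98.27, 191.0 and 178.6 (4 pairs). Complex IV was therefore highest under 4 of these 7 alternatives, and the order of the others was not stable. Limits of 0.5 and 2 CPM gave 54 and 53 members against 53. Of these 53, 46 lay above the median of expressed genes per exon kb, 50 per coding kb and 46 per kb of the coding transcript. No paired analysis was possible because only means over all 6 libraries were used, and for the same reason no replicate could be left out and no other normalization or test was run. Depth limits the 10 members under 1 CPM, which rest on at most 17.0 reads per library.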
